A study of Mus musculus with 6 samples.

Results

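The genes described here are 52 genes of G2 phase and mitosis, taken by symbol from the count table of a mouse tail skin RNA-seq series. All 52 were found among the 18180 genes of the table, and all 52 passed the low-count filter. RNA was sequenced from 6 libraries, 3 labelled cKO and 3 labelled Ctrl. The libraries labelled cKO came from mice of the genotype Mettl3fl/fl;K14creERT2+/-, which carry 2 floxed copies of Mettl3 and a tamoxifen-inducible Cre driven by the keratin 14 promoter, which is active in basal keratinocytes. The control libraries came from mice of the genotype Mettl3fl/fl;K14creERT2-/-, with the same floxed alleles and no Cre. METTL3 is the methyltransferase that places N6-methyladenosine on RNA. Per the series' design text, tamoxifen was injected on 5 days in a row, and skin was taken 4 weeks later, from tail areas with spontaneous inflammation in mice with Cre and from normal tails in mice without it. Genotype and inflamed tissue therefore cannot be told apart, and the age of the mice is not given in the labels.

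Mettl3 itself went against the label, with 569, 512 and 540 counts in the libraries labelled cKO against 440, 389 and 337 counts in the control libraries (edgeR's quasi-likelihood test, log2 fold change 0.48, SE 0.11, adjusted p = 0.000102), so every direction below is given for the libraries labelled cKO. The counts cover all exons of Mettl3 together, so they do not show whether the floxed exons were lost. Libraries held 35855880 to 37043849 counts, and no label ties a library to an animal. All p-values therefore reflect only how far these 6 libraries scatter, and that scatter may be technical. The tissue was whole skin, and defining keratinocyte genes were abundant. Krt14 had 4589, 4448 and 4476 FPKM in the libraries labelled cKO against 2336, 2419 and 2436 FPKM in the control libraries, and Krt5 had 1838, 1821 and 1821 FPKM in libraries labelled cKO against 1584, 1600.5 and 1594 FPKM in control libraries. FPKM is the authors' value per kilobase of gene and per 1e+06 counts, and it is the scale on which levels of different genes are compared here.

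Mitosis is driven by the kinase CDK1 bound to B-type cyclins, which starts chromosome condensation and spindle assembly. Kinetochores then attach each chromosome to spindle microtubules, the spindle checkpoint holds the cell until all are attached, and the anaphase-promoting complex (APC/C) finally marks cyclin B and securin for destruction, so that the chromosomes separate and the cell divides. Most of these genes are transcribed mainly in G2 and M phase, under the MuvB complex with B-MYB and FOXM1, which acts at a promoter element called the cell cycle genes homology region (CHR), often beside CCAAT boxes bound by NF-Y. In normal skin, dividing cells are found mainly in the basal layer of the epidermis and in the matrix of growing hair follicles.

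Mitosis genes were higher in the libraries labelled cKO in nearly every step of division. Of the 52 genes, 49 rose, 1 fell (Pttg1) and 2 did not pass the test (Kif23 and Espl1). In whole tissue, more cells of a type and more RNA per cell, or fewer cells and less RNA, cannot be told apart. Across all 15061 genes tested, 61.4% were called in either direction, 30.8% rose and 30.6% fell at the same threshold, an adjusted p under 0.05 in edgeR's quasi-likelihood test. The median log2 fold change was 0.99 over the 52 genes, a 1.99-fold rise, and 0.0021 over all genes tested, of which 6.55% had a log2 fold change above the median of the mitosis genes. In 49 of the 52 genes every library labelled cKO lay above every control library, where 32.6% of all genes tested did so. The same 49 genes passed the test. At least a 2-fold rise was called for 26 of them, where 5.98% of all genes tested reached it, another 20 rose between 1.5-fold and 2-fold, and Cdc25c, Ckap2 and Anln rose by less than 1.5-fold. When the biological coefficient of variation (BCV) was set to 20% instead of being estimated from these libraries, 45 of the 52 genes passed as higher, where 12.2% of all genes did. With an assumed BCV of 40%, 3 passed (Aurka, Plk1 and Ube2c), where 3.04% of all genes did.

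Together the 52 genes held 0.163%, 0.161% and 0.166% of all counts in the libraries labelled cKO, against 0.0868%, 0.0849% and 0.0848% in the control libraries. Their FPKM summed to between 508 and 522 in the libraries labelled cKO and to between 256 and 265 in the control libraries. Single genes had from 82 to 8048 counts in a library. No library was the highest or the lowest of its group throughout the set. The lowest library labelled cKO was replicate 1 for 16 genes, replicate 2 for 24 and replicate 3 for 12. The lowest control library was replicate 1 for 16 genes, replicate 2 for 18 and replicate 3 for 18. The highest of the 3 libraries labelled cKO was replicate 1 for 18 genes, replicate 2 for 11 and replicate 3 for 23, and the highest control library was replicate 1 for 21, replicate 2 for 15 and replicate 3 for 16.

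**Figure D1:**
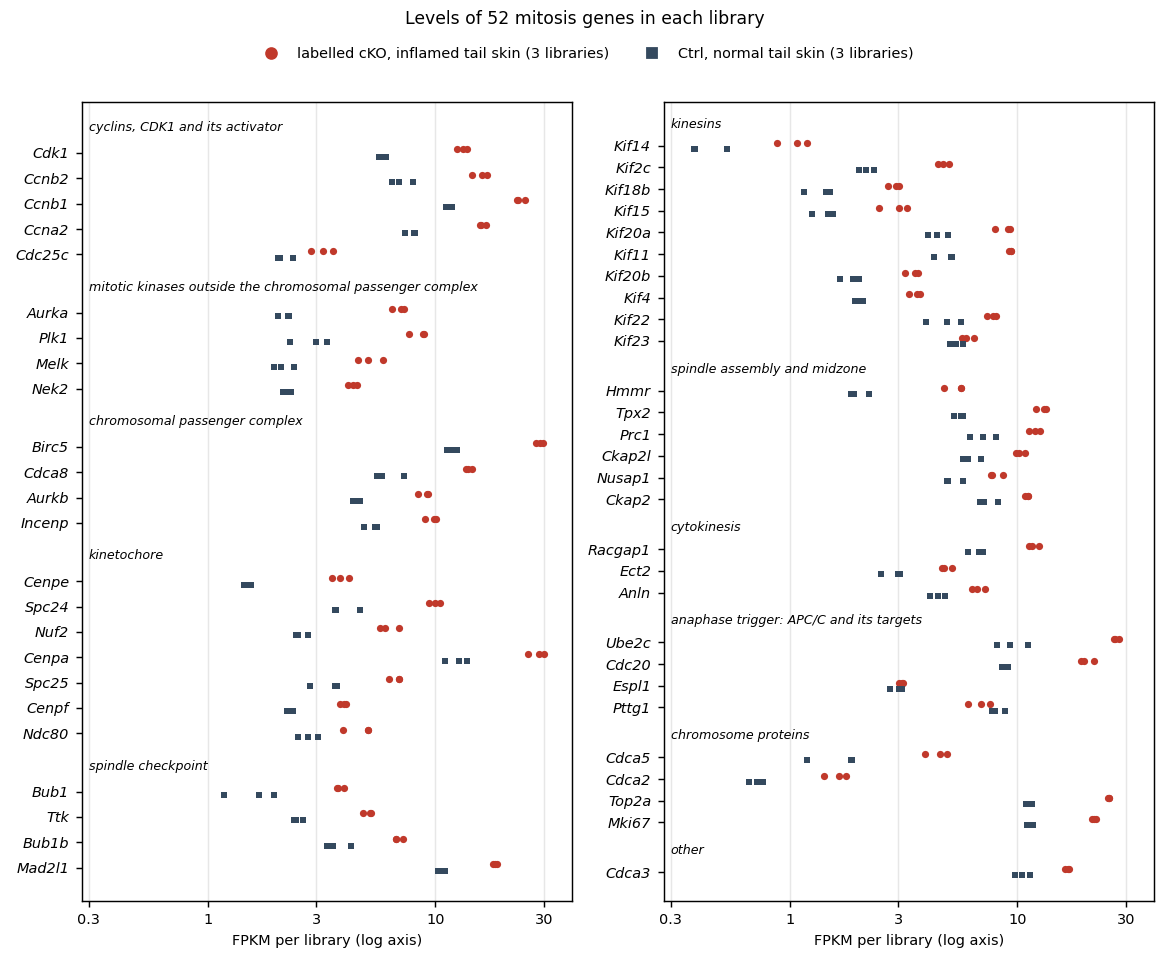
FPKM of each of the 52 mitosis genes in each library on a log axis, grouped by role, with red circles for the 3 libraries labelled cKO and dark squares for the 3 control libraries. The circles lie right of all squares in 49 genes, while those of Kif23 and Espl1 overlap the squares and those of Pttg1 lie left of them.

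The promoters of several of these genes are shown because the set moved together and because elements known from this gene class can be read in them. RefSeq windows from 250 bases before to 50 bases after the transcript start, on build GRCm38.p6, were matched for 44 of the 52 genes, with 46 windows in all. The other 8 are Aurkb, Ccna2, Cdc25c, Cdca2, Incenp, Kif20a, Spc24 and Tpx2. The deposited counts were made on mm39, so the coordinates here belong to RefSeq's table and not to the count table. Each sequence reads 5′ to 3′ on the gene's own strand. Capitals mark the 2 spellings of the CHR element searched for, TTTGAA and TTTAAA, and the CCAAT box, each on either strand, so that TTCAAA and ATTGG also count.
Ccnb1 (cyclin B1, chr13:100786437-100786736, minus strand): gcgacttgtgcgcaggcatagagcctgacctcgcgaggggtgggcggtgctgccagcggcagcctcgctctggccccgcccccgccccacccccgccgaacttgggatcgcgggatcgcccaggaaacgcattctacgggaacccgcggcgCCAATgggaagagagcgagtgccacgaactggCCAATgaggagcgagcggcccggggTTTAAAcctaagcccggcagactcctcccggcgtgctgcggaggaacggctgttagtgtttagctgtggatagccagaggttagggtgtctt
Ccnb2 (cyclin B2, chr9:70421505-70421804, minus strand): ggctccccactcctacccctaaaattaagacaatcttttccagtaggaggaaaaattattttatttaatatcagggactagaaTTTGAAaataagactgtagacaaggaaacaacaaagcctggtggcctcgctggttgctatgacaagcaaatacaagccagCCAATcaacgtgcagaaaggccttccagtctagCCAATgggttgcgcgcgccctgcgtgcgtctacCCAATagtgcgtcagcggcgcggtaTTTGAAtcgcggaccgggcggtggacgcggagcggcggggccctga
Cdk1 (chr10:69352863-69353162, minus strand): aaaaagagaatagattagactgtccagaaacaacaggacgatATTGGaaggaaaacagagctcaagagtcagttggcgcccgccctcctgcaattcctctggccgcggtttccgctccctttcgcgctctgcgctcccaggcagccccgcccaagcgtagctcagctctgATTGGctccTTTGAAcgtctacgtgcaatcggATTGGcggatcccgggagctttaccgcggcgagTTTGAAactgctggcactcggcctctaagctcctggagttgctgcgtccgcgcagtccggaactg
Plk1 (polo-like kinase 1, chr7:122159185-122159484, plus strand): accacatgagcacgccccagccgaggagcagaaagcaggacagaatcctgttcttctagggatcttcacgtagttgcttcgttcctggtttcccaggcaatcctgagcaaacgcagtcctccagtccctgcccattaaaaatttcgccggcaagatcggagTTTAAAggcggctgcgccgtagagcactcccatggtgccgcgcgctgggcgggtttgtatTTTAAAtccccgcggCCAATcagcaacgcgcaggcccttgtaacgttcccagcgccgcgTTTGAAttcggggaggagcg
Aurka (Aurora A kinase, chr2:172370521-172370820, minus strand): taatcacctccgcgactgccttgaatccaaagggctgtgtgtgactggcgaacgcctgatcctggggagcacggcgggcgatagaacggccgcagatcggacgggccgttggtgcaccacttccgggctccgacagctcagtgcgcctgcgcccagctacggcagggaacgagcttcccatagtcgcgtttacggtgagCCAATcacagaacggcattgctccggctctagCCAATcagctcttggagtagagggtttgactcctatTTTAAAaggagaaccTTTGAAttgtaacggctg
Cdc20 (activator of the APC/C, chr4:118437294-118437593, minus strand): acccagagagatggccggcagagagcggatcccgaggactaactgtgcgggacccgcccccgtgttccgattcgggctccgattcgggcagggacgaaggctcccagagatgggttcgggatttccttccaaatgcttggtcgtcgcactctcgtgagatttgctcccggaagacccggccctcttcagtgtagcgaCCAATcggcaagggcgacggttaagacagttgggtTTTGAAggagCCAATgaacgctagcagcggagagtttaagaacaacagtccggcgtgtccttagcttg
Birc5 (survivin, chr11:117848987-117849286, plus strand): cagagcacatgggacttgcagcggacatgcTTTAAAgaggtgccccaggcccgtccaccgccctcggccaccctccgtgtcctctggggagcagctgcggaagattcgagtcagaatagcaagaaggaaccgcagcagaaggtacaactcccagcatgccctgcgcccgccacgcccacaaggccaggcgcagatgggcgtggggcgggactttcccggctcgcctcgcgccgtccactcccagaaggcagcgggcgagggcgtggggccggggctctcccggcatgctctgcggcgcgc
Bub1b (checkpoint kinase-like protein BubR1, chr2:118597961-118598260, plus strand): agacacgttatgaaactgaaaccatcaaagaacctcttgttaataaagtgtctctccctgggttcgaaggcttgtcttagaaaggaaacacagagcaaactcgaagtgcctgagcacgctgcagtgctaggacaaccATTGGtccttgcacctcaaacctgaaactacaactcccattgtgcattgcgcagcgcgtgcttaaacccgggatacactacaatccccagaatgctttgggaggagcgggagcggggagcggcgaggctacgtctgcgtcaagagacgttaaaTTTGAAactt

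All 8 windows hold a CHR spelling and 7 hold a CCAAT box. In Ccnb1 the CHR spelling lies 42 to 37 bases before the start, downstream of a pair of CCAAT boxes. In Cdc20 it lies 18 to 13 bases before the start, between the CCAAT boxes. In Ccnb2 the nearer of 2 CHR spellings begins at base 5 of the transcript, downstream of 3 CCAAT boxes. Plk1 and Aurka hold 3 and 2 CHR spellings. The Birc5 window holds 1 CHR spelling, 220 to 215 bases before the start, and no CCAAT box. Positions depend on the start that RefSeq gives. On the same assembly and strand, the nearest GENCODE M21 transcript start lay 35 bases downstream of it for Aurka and 14 bases downstream for Birc5, and it lay within 9 bases for the other 6 genes. In Aurka and Birc5 a run of 20 bases soon after the RefSeq start was not found in a GENCODE transcript.

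Over the 46 windows of the set, 84.8% held a CHR spelling, 73.9% a CCAAT box and 69.6% both. Over all 32851 windows of the RefSeq table the shares were 27.6%, 37.4% and 10.7%, and over the 15110 windows of genes tested in skin they were 20.3%, 37.2% and 8.02%. The CHR spellings of the set gathered at the start. In 37.0% of its windows one began in the first 25 bases of the transcript, where 1.25% of the windows of genes tested had one there. From 100 bases before the start onwards, 78.3% of the windows of the set held one, against 8.16% of the windows of genes tested. By the same limit, the 34 genes with a CHR spelling had a median log2 fold change of 0.98, and the 10 without one had a median of 1.01. Counted over the whole window, the order of the medians was the other way, at 1.01 for the 37 genes with a CHR spelling and 0.93 for the 7 without. Among the 7 without, Pttg1 was the gene that fell and the others rose, Nuf2 by 2.39-fold. Kif23 and Espl1, which did not pass the test, each hold a CHR spelling and a CCAAT box. Outside the set, 34.4% of the 1138 tested genes with a CHR spelling from 100 bases before the start onwards rose, and 30.1% of the 10731 tested genes without one rose. The shares that fell were 28.2% and 31.5%. Of the 566 genes with such a CHR spelling and a CCAAT box 32% rose, near the 30.6% of all 11869 genes with a window.

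**Figure D2:**
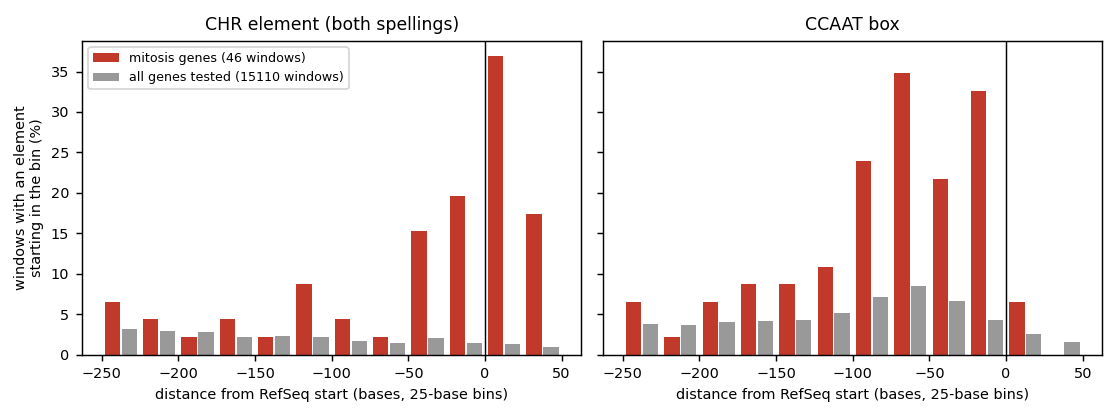
Share of RefSeq promoter windows in which a CHR spelling (left) or a CCAAT box (right) begins, in 25-base bins by distance from the transcript start, for the 46 windows of the mitosis genes in red and the 15110 windows of all genes tested in grey. CHR spellings of the mitosis genes peak in the first bin after the start at 37.0%, and their CCAAT boxes lie mostly in the 100 bases before it.

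Entry into mitosis was represented by CDK1, its cyclins and its activating phosphatase, and all 5 genes rose. Ccnb1, cyclin B1, had 23.2, 24.8 and 22.9 FPKM in the libraries labelled cKO against 11.8, 11.4 and 11.1 FPKM in the control libraries. The groups did not overlap, and the difference was 2.03-fold (log2 fold change 1.02, SE 0.06, adjusted p = 1.62e-25, edgeR). Cdk1, the kinase itself, had 12.5, 13.7 and 13.2 FPKM in libraries labelled cKO against 5.87, 6.09 and 5.67 FPKM in control libraries and rose 2.20-fold (log2 fold change 1.14, SE 0.06, adjusted p = 3.96e-28). Ccnb2, the second B-type cyclin, and Ccna2, the A-type cyclin of S and G2 phase, rose 2.18-fold and 2.02-fold. Cdc25c, the phosphatase that removes inhibitory phosphate from CDK1, changed least among the 5, with 249, 200 and 227 counts in the libraries labelled cKO against 147, 147 and 171 counts in the control libraries (log2 fold change 0.55, SE 0.17, adjusted p = 0.00383). It did not pass with an assumed BCV of 20% (adjusted p = 0.107).

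The kinases that act beside CDK1 held the 2 largest changes of the set, those of Aurka and Plk1. Aurka, which matures centrosomes and the spindle poles, had 7.06, 7.27 and 6.48 FPKM in the libraries labelled cKO against 2.26, 2.28 and 2.04 FPKM in the control libraries, a 3.11-fold difference. Every library labelled cKO was above 6 FPKM and every control library below 3 FPKM. Plk1, polo-like kinase 1, which acts at centrosomes, kinetochores and the midzone, had 8.84, 8.88 and 7.65 FPKM in libraries labelled cKO against 2.30, 3.001 and 3.34 FPKM in control libraries and rose 2.89-fold (log2 fold change 1.53, SE 0.12, adjusted p = 2.37e-19, edgeR). Its control libraries were spread more widely, with replicate 1 lowest. Melk, a kinase of proliferating cells, rose 2.37-fold, and Nek2, a kinase of centrosome separation, rose 1.90-fold (4.14, 4.52 and 4.35 FPKM in libraries labelled cKO against 2.14, 2.28 and 2.32 FPKM in control libraries). Both had all libraries labelled cKO above all control libraries.

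The chromosomal passenger complex, which corrects faulty attachments and later marks the plane of division, rose as a whole, with 4 of 4 genes higher. Birc5, survivin, was the most abundant gene of the set in the libraries labelled cKO, with 27.8, 28.8 and 29.6 FPKM there and 12.5, 11.2 and 11.7 FPKM in the control libraries (log2 fold change 1.26, SE 0.088, adjusted p = 1.72e-21, edgeR). Cdca8, borealin, rose 2.22-fold, the kinase gene Aurkb rose 1.96-fold, and the scaffold gene Incenp rose 1.80-fold. Incenp had 10.03, 8.99 and 9.87 FPKM in the libraries labelled cKO against 4.85, 5.43 and 5.52 FPKM in the control libraries, the smallest ratio of the 4.

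At the kinetochore all 7 genes rose, with log2 fold changes from 0.73 to 1.35. Cenpe, a kinesin-like motor that carries chromosomes to the spindle equator, had 3.51, 3.81 and 4.19 FPKM in the libraries labelled cKO against 1.44, 1.46 and 1.55 FPKM in the control libraries (log2 fold change 1.35, SE 0.087, adjusted p = 4.05e-23, edgeR). Cenpa, the histone H3 variant of centromeres, had 29.8, 25.5 and 28.4 FPKM in libraries labelled cKO against 13.8, 10.98 and 12.7 FPKM in control libraries and was the most abundant gene of the set in the control libraries. Cenpf, a large protein of the outer kinetochore, rose 1.69-fold. The 4 subunits of the NDC80 complex, which holds microtubules, rose by different amounts, with Spc24 at 2.45-fold, Nuf2 at 2.39-fold, Spc25 at 1.95-fold and Ndc80 at 1.66-fold.

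The spindle checkpoint genes all rose. Bub1, a checkpoint kinase, rose 2.34-fold with 3.98, 3.71 and 3.75 FPKM in the libraries labelled cKO against 1.95, 1.68 and 1.18 FPKM in the control libraries, where replicate 3 was lowest. Ttk, the kinase that starts checkpoint signalling, rose 2.01-fold and Bub1b, BubR1, rose 1.82-fold. Mad2l1, the protein that holds CDC20 inactive, had 17.9, 18.4 and 18.6 FPKM in libraries labelled cKO against 10.5, 10.2 and 10.99 FPKM in control libraries and rose 1.70-fold (log2 fold change 0.77, SE 0.078, adjusted p = 6.91e-14, edgeR).

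Of 10 kinesin genes, the motors of the spindle, 9 rose. Kif14 was the least abundant gene of the set and rose 2.39-fold, with 1.08, 0.878 and 1.19 FPKM in the libraries labelled cKO against 0.379, 0.533 and 0.382 FPKM in the control libraries. Kif2c, a microtubule depolymerase at centromeres, had 4.72, 4.99 and 4.49 FPKM in libraries labelled cKO against 2.03, 2.36 and 2.16 FPKM in control libraries (2.14-fold). Kif11, the motor that pushes spindle poles apart, had 9.24, 9.40 and 9.40 FPKM in libraries labelled cKO against 5.10, 5.18 and 4.32 FPKM in control libraries (log2 fold change 0.92, SE 0.066, adjusted p = 1.20e-20, edgeR). Kif18b, Kif15, Kif20a, Kif20b, Kif4 and Kif22 rose between 1.57-fold and 2.07-fold, with Kif22, a chromosome-arm motor, at the low end (8.03, 7.36 and 7.85 FPKM in libraries labelled cKO against 5.65, 3.96 and 4.93 FPKM in control libraries). Kif23, the motor subunit of centralspindlin, was the exception and had 6.46, 5.73 and 5.95 FPKM in the libraries labelled cKO against 5.78, 5.39 and 5.04 FPKM in the control libraries. Its groups overlapped, it did not pass the test (log2 fold change 0.14, 95% interval -0.03 to 0.31, adjusted p = 0.156), and the interval leaves out the median of the set.

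Spindle assembly and midzone genes all rose, but over a wide range. Hmmr, a spindle pole protein that also binds hyaluronan, rose 2.64-fold (5.63, 5.69 and 4.79 FPKM in the libraries labelled cKO against 1.91, 1.86 and 2.23 FPKM in the control libraries). Tpx2, the activator of Aurora A on the spindle, rose 2.27-fold (log2 fold change 1.18, SE 0.073, adjusted p = 3.21e-24, edgeR). Prc1, which bundles midzone microtubules, Ckap2l, Nusap1 and Ckap2, all microtubule-associated proteins, rose between 1.47-fold and 1.65-fold. Nusap1 and Ckap2 did not pass with an assumed BCV of 20% (adjusted p = 0.0571 and 0.0803). The 3 cytokinesis genes rose by 1.74-fold for Racgap1, the other subunit of centralspindlin, 1.67-fold for Ect2, which activates RhoA at the cleavage furrow, and 1.48-fold for Anln, anillin, the scaffold of the contractile ring. Anln had 6.29, 6.68 and 7.20 FPKM in the libraries labelled cKO against 4.47, 4.15 and 4.81 FPKM in the control libraries and an adjusted p of 0.0727 with an assumed BCV of 20%.

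The genes around the anaphase trigger split. Ube2c, the ubiquitin-conjugating enzyme of the APC/C, had 27.9, 26.8 and 26.5 FPKM in the libraries labelled cKO against 9.25, 8.12 and 11.1 FPKM in the control libraries, a 2.80-fold difference (log2 fold change 1.49, SE 0.099, adjusted p = 2.38e-22, edgeR). Cdc20, which brings the complex to its targets, had 19.1, 19.6 and 21.7 FPKM in libraries labelled cKO against 9.14, 8.58 and 9.09 FPKM in control libraries and rose 2.22-fold. Pttg1, securin, which holds the protease separase inactive until anaphase, went the other way, with 7.55, 6.06 and 6.93 FPKM in the libraries labelled cKO against 8.81, 7.73 and 7.96 FPKM in the control libraries. It was the gene of the set that fell (log2 fold change -0.28, SE 0.089, adjusted p = 0.00525), and without replicate 2 labelled cKO or without control replicate 1 it no longer passed (adjusted p = 0.0772 and 0.0561). Espl1, separase itself, had 3.13, 3.12 and 3.02 FPKM in libraries labelled cKO against 2.76, 3.03 and 3.11 FPKM in control libraries, with overlapping groups (log2 fold change 0.04, 95% interval -0.13 to 0.20, adjusted p = 0.721). In the order of mean FPKM, Pttg1 was number 29 of the 52 genes in the libraries labelled cKO and number 10 in the control libraries, and Espl1 was number 48 in the libraries labelled cKO and number 31 in the control libraries.

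Among genes of chromosome structure, Top2a, the topoisomerase that untangles sister chromatids, had 25.03, 25.2 and 25.4 FPKM in the libraries labelled cKO against 11.6, 11.1 and 10.9 FPKM in the control libraries, with very little spread within a group (log2 fold change 1.14, SE 0.039, adjusted p = 1.41e-39, edgeR). Mki67, which coats mitotic chromosomes and is the usual stain for cycling cells, had 21.8, 21.2 and 22.1 FPKM in libraries labelled cKO against 11.7, 11.4 and 11.04 FPKM in control libraries, a 1.87-fold rise. Cdca5, sororin, which protects cohesion between sister chromatids, rose 2.68-fold at low counts (268, 315 and 339 in the libraries labelled cKO against 133, 82 and 131 in the control libraries). Cdca2, a chromatin-bound phosphatase subunit, rose 2.22-fold. Cdca3, a gene of mitotic entry, had 16.7, 16.2 and 16.8 FPKM in libraries labelled cKO against 9.75, 10.5 and 11.3 FPKM in control libraries and rose 1.55-fold.

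**Figure D3:**
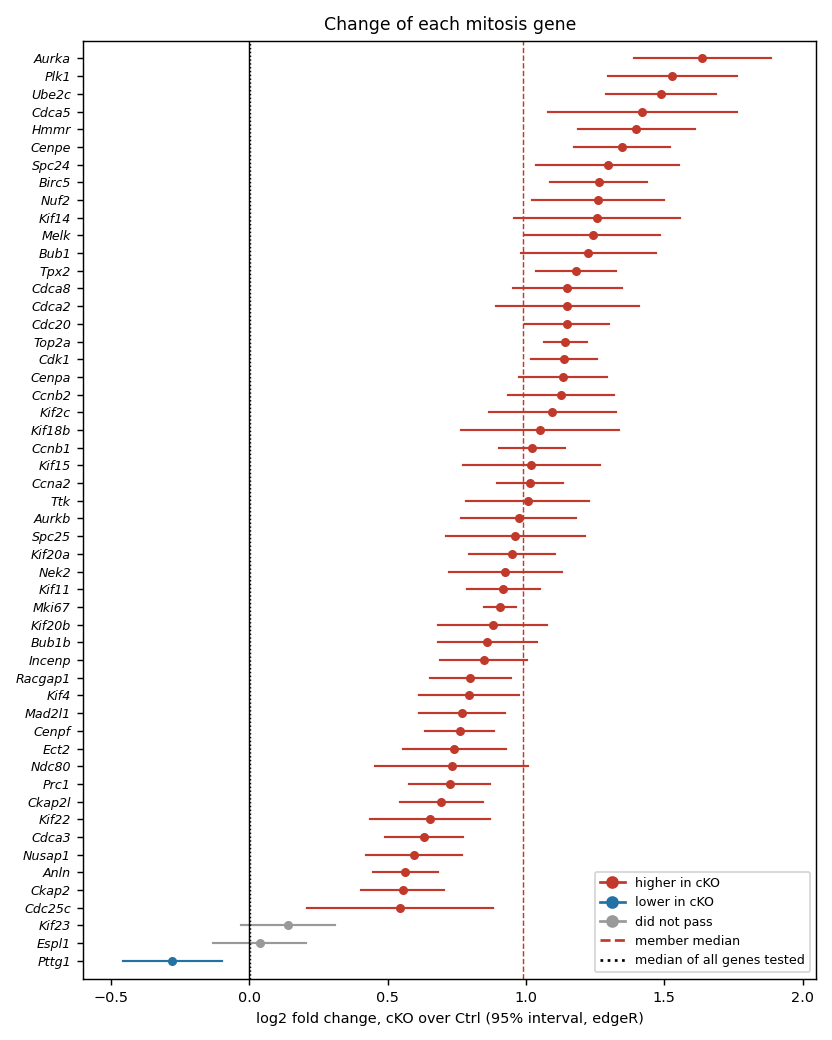
Log2 fold change of each mitosis gene, labelled cKO over Ctrl, with its 95% interval from edgeR, in order of size, with a dashed line at the median of the 52 genes (0.99) and a dotted line at the median of all genes tested (0.0021). Aurka is at the top at 1.64, Kif23 and Espl1 in grey have intervals that include 0, and Pttg1 in blue lies at -0.28.

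Level and change were only weakly tied across the set. Over the 52 genes, which share the same libraries, Spearman's rho between the log2 fold change and the mean FPKM in the control libraries was -0.22, and between the fold change and gene length it was -0.19. The order of levels was largely kept, with a rho of 0.93 between mean FPKM in the libraries labelled cKO and in the control libraries. In the libraries labelled cKO the mean FPKM of single genes ran from 1.05 to 28.7 with a median of 7.34, and in the control libraries from 0.432 to 12.5 with a median of 4.48.

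Ratios between partner genes within a library do not depend on how libraries are scaled. The pairs were chosen after their values were seen, so they are given without a test. Kif23 over Racgap1, the 2 subunits of centralspindlin, was 0.521, 0.496 and 0.526 in the libraries labelled cKO against 0.818, 0.889 and 0.739 in the control libraries, without overlap. Ndc80 over Nuf2, which form a dimer, was 0.730, 0.652 and 0.877 in libraries labelled cKO against 1.02, 1.01 and 1.22 in control libraries. Pttg1 over Ccnb1, both targets of the APC/C, was 0.326, 0.244 and 0.302 in the libraries labelled cKO against 0.745, 0.677 and 0.716 in the control libraries, the widest gap among the pairs plotted. Ratios that were higher in the libraries labelled cKO included Aurka over its activator Tpx2, at 0.528, 0.602 and 0.496 in libraries labelled cKO against 0.427, 0.404 and 0.353 in control libraries, and Top2a over Mki67, at 1.15, 1.18 and 1.15 in libraries labelled cKO against 0.987, 0.976 and 0.989 in control libraries. Ccnb2 over Ccnb1 overlapped between the groups, at 0.622, 0.646 and 0.738 in libraries labelled cKO against 0.583, 0.700 and 0.579 in control libraries.

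**Figure D4:**
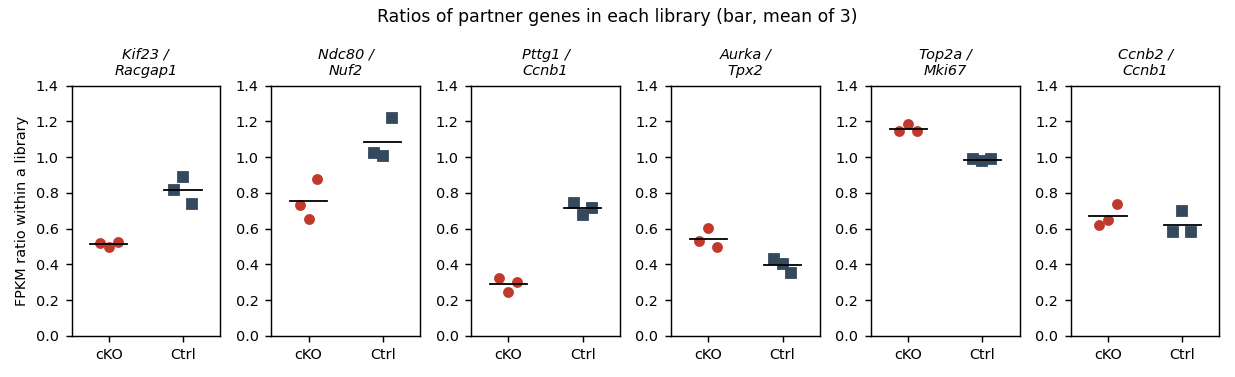
FPKM ratio of 6 pairs of mitosis genes in each library, with cKO on the left and Ctrl on the right of each panel and a bar at the mean of 3 libraries. The groups are apart in 5 panels, most of all for Pttg1 over Ccnb1, and overlap for Ccnb2 over Ccnb1.

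The transcription factors of this gene class changed in both directions. Of 19 genes for B-MYB, FOXM1, E2F and pocket proteins, 12 rose and 6 fell (median log2 fold change 0.36). The share that rose was 63.2%, where 30.8% of all genes tested rose. The share that fell was close to the 30.6% that fell over all genes tested. Foxm1 had 4.49, 4.74 and 5.01 FPKM in the libraries labelled cKO against 2.24, 1.80 and 2.53 FPKM in the control libraries (log2 fold change 1.09, SE 0.1, adjusted p = 5.37e-15, edgeR), a rise close to the median of the mitosis genes. Mybl2, which encodes B-MYB, rose 1.49-fold (3.45, 2.94 and 3.03 FPKM in libraries labelled cKO against 2.04, 2.06 and 2.11 FPKM in control libraries). Among the MuvB subunit genes in the list, Lin9 rose 1.55-fold. Lin54, Lin52 and Lin37 fell by 0.37, 0.43 and 0.32 on the log2 scale (adjusted p = 3.11e-06, 0.0148 and 0.0247, edgeR). The repressive factors E2f8 and E2f7 rose most, 3.29-fold and 3.04-fold. Tfdp2, a dimer partner of E2F, and Rbl2, the pocket protein p130 of resting cells, fell by 0.82 and 0.44 on the log2 scale.

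Other division genes also rose, though in smaller shares. In the order given here, 64.7%, 76.5% and 78.6% of the lists rose, where 30.8% of all genes tested rose and 30.6% fell. Of 34 further kinetochore and checkpoint genes 22 rose and 2 fell (median 0.64), with Knl1, a kinetochore scaffold, Trip13, which resets the checkpoint, and Ska3 of the microtubule-binding SKA complex at 2.39-fold, 2.36-fold and 2.03-fold. Cenpi and Hjurp, both genes of centromere proteins, fell by 0.48 and 0.11. Of 34 further spindle, centrosome and cytokinesis genes 26 rose and 1 fell, Kif2a (median 0.56), with Shcbp1 and Cep55, both of the midbody, at 2.41-fold and 2.17-fold, and Depdc1a at 2.20-fold. Of 14 further G2 and M regulators 11 rose and 2 fell (median 0.74), with the phosphatase gene Cdkn3 at 2.34-fold, the kinase gene Pbk at 1.91-fold and Ccnf, cyclin F, at 1.82-fold. Wee1, the kinase that restrains CDK1, fell (6.15, 6.63 and 6.13 FPKM in the libraries labelled cKO against 7.71, 7.64 and 8.67 FPKM in the control libraries), as did Ensa, an inhibitor of the phosphatase PP2A.

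The lists of APC/C genes and of cohesin and condensin genes stood nearer to the background. Of these lists, 47.1% and 52.6% rose, where 30.8% of all genes tested did. Of 17 APC/C subunits and inhibitors 8 rose and 3 fell (median 0.13), with the inhibitor gene Fbxo5 at 1.85-fold, the ubiquitin-conjugating enzyme gene Ube2s at 1.70-fold and the subunit gene Cdc16 at 1.347-fold, and with Anapc7 and Anapc5 lower by 0.35 and 0.28 on the log2 scale. Of 19 cohesin and condensin genes 10 rose and 2 fell (median 0.14). The cohesin protectors Sgo2a and Sgo1 rose 2.33-fold and 2.30-fold and the condensin core gene Smc2 rose 2.17-fold, while Ncaph2 of condensin II and the cohesin loader gene Nipbl fell by 0.34 and 0.23.

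The earlier phases of the cycle moved the same way. Of the DNA replication list 86.1% rose and of the G1 and S phase list 76.9%, where 30.8% of all genes tested did. Of 36 DNA replication genes 31 rose and 1 fell, Rfc3 (median 0.68), with the origin recognition gene Orc1 and the helicase genes Mcm5 and Mcm10 at 2.36-fold, 2.25-fold and 2.18-fold. Of 13 G1 and S phase cyclin and CDK genes 10 rose and none fell (median 0.35). Ccne1, cyclin E1, had 315, 450 and 367 counts in the libraries labelled cKO against 135, 127 and 68 counts in the control libraries (3.44-fold), and Ccne2 and Ccnd1 rose 1.80-fold and 1.66-fold. CDK inhibitors were the exception. Of 6 tested, 4 fell and none rose (median -0.24), where 30.6% of all genes tested fell and 30.8% rose. Cdkn2b, which encodes p15, had 9.07, 8.53 and 8.75 FPKM in the libraries labelled cKO against 17.9, 17.3 and 18.1 FPKM in the control libraries (log2 fold change -1.04, SE 0.089, adjusted p = 4.30e-17, edgeR), Cdkn1b and Cdkn1c fell by 0.38 and 0.30, and Cdkn1a, which encodes p21, fell by 0.17 (119.97, 123 and 125 FPKM in libraries labelled cKO against 135, 135 and 137 FPKM in control libraries). Cdkn2a had 20, 29 and 9 counts in the libraries labelled cKO against 5, 2 and 8 counts in the control libraries and was too low to be tested.

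**Figure D5:**
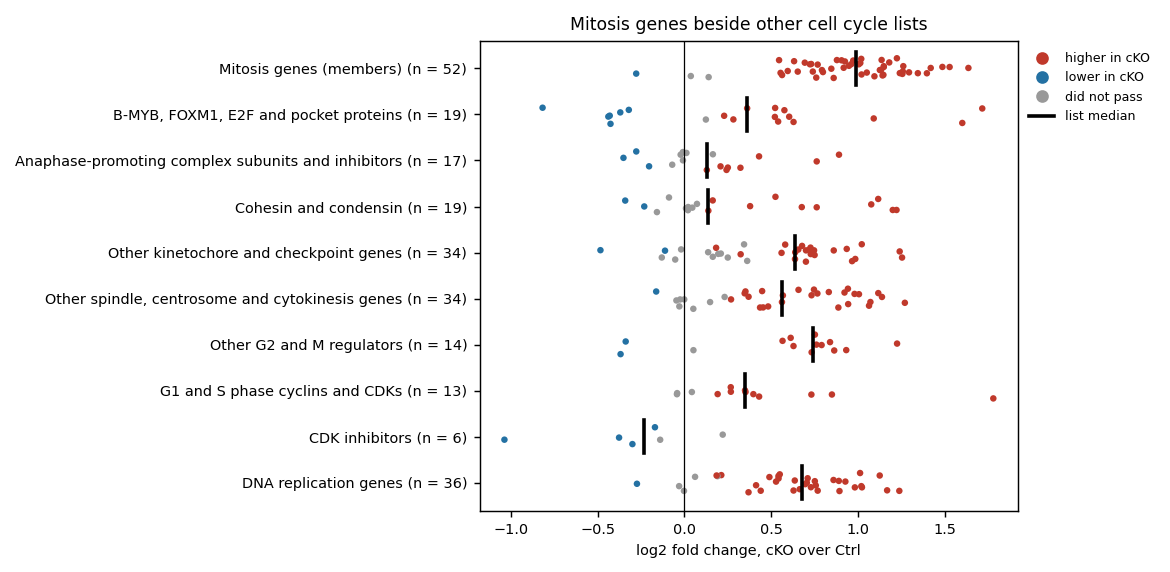
Log2 fold change, labelled cKO over Ctrl, of each tested gene in the mitosis set and in 9 other cell cycle lists, coloured by whether the gene was called, with a bar at each list's median. The mitosis genes have the highest median (0.99) and CDK inhibitors are the one list with a median below 0 (-0.24).

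The gene annotation in the deposited table gives a second view of what the set shares. The term cell division was attached to 38 of the 52 genes and to 2.07% of the table. The terms in this paragraph were chosen after the results were seen. Among the 327 tested genes with that term outside the set, 138 rose and 76 fell (42.2% higher, where 30.8% of all genes were). Genes annotated to the kinetochore outside the set had 55 of 110 higher (50%) and 22 lower, where 30.6% of all genes were lower. Those annotated to mitotic cytokinesis had 10 of 38 higher (26.3%) and 12 lower. Those annotated to microtubule motor activity had 9 of 34 higher (26.5%) and 12 lower. Both of these terms were thus near the shares over all genes.

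Markers of cells that could carry these transcripts are given beside the shares over all genes tested, of which 30.8% rose and 30.6% fell. The 7 basal keratinocyte markers summed to between 6653 and 6811 FPKM in the libraries labelled cKO and to between 4559 and 4675 FPKM in the control libraries, with 3 of 7 higher and 4 lower. The rise in the sum came from Krt14 (1.85-fold) more than from Krt5 (1.13-fold). The median of the 7 markers went the other way, with a median log2 fold change of -0.18. Their median FPKM was 77.3, 77.7 and 77.2 in the libraries labelled cKO against 116, 121 and 120 in the control libraries. Suprabasal keratinocyte markers had 4 of 7 higher and 3 lower, with log2 fold changes from -1.41 to 3.24 and a median of 0.49. They summed to between 25486 and 25719 FPKM in the libraries labelled cKO and to between 18641 and 18712 FPKM in the control libraries. Such a sum mostly follows the most abundant markers. Hair matrix and shaft markers, which mark the other main site of division in skin, had 6 of 7 lower and none higher, and summed to between 508 and 520.0 FPKM in the libraries labelled cKO and to between 713 and 718 FPKM in the control libraries.

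For the marker counts that follow, too, 30.8% of all genes tested rose and 30.6% fell. Of the 5 general leukocyte markers all rose, and they summed to between 105 and 109 FPKM in the libraries labelled cKO and to between 48.1 and 51.2 FPKM in the control libraries. Ptprc, the pan-leukocyte gene CD45, had 6.24, 5.93 and 6.35 FPKM in libraries labelled cKO against 2.22, 1.98 and 2.35 FPKM in control libraries (log2 fold change 1.48, SE 0.08, adjusted p = 2.90e-27, edgeR). All 5 macrophage markers rose, with sums of 244 to 247 FPKM in the libraries labelled cKO and 180 to 185 FPKM in the control libraries. Neutrophil markers rose in 4 of 4 tested, with sums of 11.98 to 12.47 FPKM in the libraries labelled cKO and 2.53 to 3.38 FPKM in the control libraries. T cell markers were scarce, with sums of 3.95 to 5.39 FPKM in the libraries labelled cKO and 1.99 to 2.33 FPKM in the control libraries, and 2 of 5 rose. Of the B cell markers, Cd79a had at most 6 counts and Ms4a1 and Pax5 at most 1 count in any library. Fibroblast markers rose in 5 of 5 genes and endothelial markers in 4 of 5. Melanocyte markers rose in 5 of 5 genes, with sums of 61.4 to 66.6 FPKM in the libraries labelled cKO and 36.2 to 38.7 FPKM in the control libraries. Erythroid markers fell in 5 of 5 genes, with sums of 115 to 119 FPKM in the libraries labelled cKO and 182 to 203 FPKM in the control libraries. Skeletal muscle markers summed to 6.89, 13.4 and 5.23 FPKM in the libraries labelled cKO, with replicate 2 apart, against 5.65, 4.50 and 3.73 FPKM in the control libraries, and 1 of 5 rose. No marker of the basal keratinocyte, leukocyte, macrophage, fibroblast or endothelial lists was at 0 in any library. The part of each cell type in the rise of the mitosis genes was not tested.

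Exons of 14 of the 52 genes overlap exons of another gene in the GENCODE M21 annotation, and for 8 of them that other gene is in the count table. The strand setting of the counting is not given in the sources used here, so reads of such pairs cannot be told apart. The partners of Ccna2, Cdca8, Kif20a and Prc1, which are Exosc9, 9930104L06Rik, Cdc23 and Rccd1, had adjusted p of 0.748, 0.742, 0.916 and 0.364. Elovl1, a fatty acid elongase gene that overlaps Cdc20 and had more counts, rose as well (8041, 8445 and 8001 counts in the libraries labelled cKO against 5340, 5046 and 4937 counts in the control libraries). Oip5, which overlaps Nusap1, rose at low counts, Pdzd11, which overlaps Kif4, fell, and Tnnc2, a muscle troponin gene that overlaps Ube2c, had 23, 64 and 24 counts in the libraries labelled cKO against 22, 19 and 31 counts in the control libraries.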

How the data were processed

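RNA was taken from tail skin with TRIzol and made into libraries with a VAHTS Universal V5 kit, per the labels' protocols. The tools fastp, HISAT2 and HTSeq and the build mm39 are named, without versions, per the submitters' processing notes. The authors deposited whole-number counts per gene, not normalized, and FPKM, which equalled the deposited counts divided by 1 length per gene and the column total. For strand setting, annotation and multiply aligned reads, the choice is not given in the sources used here. No column of values was left unmapped.

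The whole count table was fitted with edgeR 4.0.16 under R 4.3.3 (filterByExpr with minimum count 10 and total 15, which kept 15061 genes; TMM; robust quasi-likelihood fit, group as the only term; Benjamini-Hochberg adjustment over all genes tested; call at an adjusted p under 0.05; two-sided). Standard errors were obtained from each gene's fold change and F statistic, and 95% intervals from them. The common BCV was 5.34%. Totals ran from 35855880 to 37043849 counts per library, and the lowest count of a mitosis gene in a library was 82. An exact permutation of 3 against 3 libraries cannot go below 0.1. The steps were run on simulated counts in which only a small share of genes changed. Most genes were called in these data, so that run does not measure the rate of false calls here.

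The 52 genes, the other lists and the motifs were chosen with earlier results of these data known. Named genes were all 52 and 7 fixed genes. From each other list they were up to 3 called genes in the majority direction and 2 in the other. Other genes named (Cdkn2a, Cd79a, Ms4a1, Pax5, Lin9, Lin37, Lin52, Lin54 and overlapping partners) were picked after their values were seen. Alternatives were DESeq2 1.42.0, limma 3.58.1 (voom, and log2(FPKM + 1) or log2(FPKM + 0.1)), other scaling and filters, a block for the replicate number, a threshold of 0.01, assumed BCVs of 20% and 40% in edgeR's likelihood ratio test, leaving out keratin genes, and leaving out each library.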

Additional observations from a re-analysis of the deposited data

How the results depend on the processing

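The count of 49 mitosis genes called higher was the same under every alternative except an assumed BCV of 20%, with 45, and of 40%, with 3. The genes called over the whole table numbered 9244, and 3361 and 774 under those BCVs, and 8694 to 8847 when 1 library was left out. The single fall, that of Pttg1, was lost (count 0) under both assumed BCVs and by limma on log2(FPKM + 1) with no filter, and the count ran from 0 to 1 when 1 library was left out. The median log2 fold change of the set was 0.809 by limma on log2(FPKM + 1), whether low genes were filtered or not, since the added 1 pulls low genes towards 0, and 0.969 to 1.01 when 1 library was left out. For Espl1, which did not pass in any of these fits, leaving out 1 library gave log2 fold changes from -0.011 (control replicate 1 left out) to 0.0732, and the cause was not tested. Of 936 other comparisons of single genes of the set with an alternative, leaving the assumed BCVs aside, 932 kept direction and call. Of the counts over the other lists, 30 of 36 under the assumed BCVs fell by more than 1.5 times, and 299 of 324 under the other alternatives stayed within 1.5 times. With the replicate block, 9212 genes were called, 49 of them in the set and higher. The numbers do not pair the libraries: deviations of same-numbered libraries correlated at -0.022, -0.0099 and -0.041, and 0 of 6 libraries correlated best with its own number. The median of all genes moved by less than 0.1 on the log2 scale under every alternative.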
